A study of Mus musculus with 12 samples.

Results

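The comparison described here sets mouse ileal enteroids given IL-13 alone against untreated enteroids. Its members were chosen by the labels, as the 3 libraries of IL-13 without butyrate and the 3 libraries of untreated culture, 6 of the 12 libraries of the series. Enteroids are three-dimensional cultures of intestinal epithelium, here grown from the ileum of wild-type C57Bl/6 mice, and the treated ones had received IL-13 at 20 ng/mL for 72 h. The other 6 libraries, from enteroids given butyrate at 1 mM for 48 h with or without IL-13, entered the fit as a source of the spread between replicates and are not compared here. The sources used here name no vehicle and give neither age nor sex of the mice. Nor do the labels tell whether replicates came from separate cultures or mice; the p-values therefore reflect the spread among these 6 and the other libraries, which could be technical in origin.

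In type 2 immunity the cytokine IL-13 is released in the gut by innate lymphoid cells and helper T cells during worm infection and allergy. On epithelial cells it binds a receptor made of the chains Il13ra1 and Il4ra, which activates JAK kinases and the transcription factor STAT6. Cells meet unfolded protein, a shortage of amino acids, oxidants or a lack of oxygen with separate gene programmes, among whose leading transcription factors are XBP1 and ATF6, ATF4, NRF2 and HIF1A. These programmes, and the metabolism, transport and barrier genes of the epithelium, are described by lists of genes with a shared role.

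Library totals ran from 16303915 to 22558599 counts untreated and from 14239405 to 15008598 counts with IL-13, so the treated libraries were the shallower ones. Replicates of a group varied beyond sampling noise (chi-square over its degrees of freedom, 3.82 to 9.86). Levels are in CPM, counts scaled to a common TMM-normalised library size, given library by library or as mean ± SD over n = 3 libraries. The labelled cell type was checked against 7 epithelial markers, whose summed level ran from 6545 to 6777 CPM untreated and from 7547 to 7741 CPM with IL-13. Of 6 matched mesenchymal markers Pdgfrb alone was tested, and the 6 together gave 2.56 to 4.09 CPM untreated and 1.44 to 2.31 CPM with IL-13. The 4 matched endothelial markers gave 0.932 to 1.22 and 2.52 to 3.43 CPM, of which Vwf was higher and Pecam1, called with all libraries, lost its call without any 1 of the 6; the 4 of glia and neurons gave 0.887 to 1.34 and 0.824 to 1.08 CPM. The 7 matched immune markers gave 27.1 to 31.1 and 28.9 to 35.1 CPM, most of it from Csf1r, which stood at 19.4, 16 and 17.2 CPM untreated against 17.7, 17.3 and 16.3 CPM. Of the 4 that were tested, the macrophage marker Cd68 was called, rising from 2.49 ± 0.127 to 5.19 ± 1.45 CPM. The pan-leukocyte gene Ptprc had 1, 3 and 2 counts untreated and 10, 4 and 5 with IL-13, and the T cell gene Cd3e 0, 1 and 0 counts untreated and 0, 0 and 0 with IL-13. Within the epithelium the 7 tuft cell markers summed to 16.4 to 24.1 CPM untreated and 73.3 to 84.9 CPM with IL-13, and the 4 stem cell markers to 288 to 293 CPM and 114 to 156 CPM. Of the 4 stem cell markers 2 fell and 2 were not called, with log2 fold changes from -2.38 to 0.37. The 6 goblet cell markers summed to 2697 to 3906 and 3387 to 4387 CPM, the 5 of Paneth cells to 1868 to 2519 and 2425 to 3267 CPM, and the 5 enteroendocrine ones to 977 to 1304 and 1143 to 1236 CPM. Of the 6 goblet cell markers 1 rose, 2 fell and 3 were not called, with log2 fold changes from -1.95 to 1.62. Of the 4 tested Paneth cell markers Lyz1, Mmp7 and Itln1 fell, the last losing its call under 7 alternatives, and Ang4 rose from 544 ± 88.1 to 2028 ± 347 CPM. The 3 matched markers of ileal enterocytes summed to 30.7 to 34.3 and 81.5 to 94.8 CPM. Of these Slc51a and Slc51b rose, while the bile acid importer Slc10a2 was not called (log2 fold change -0.05).

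The edgeR quasi-likelihood test called 5977 of the 13750 genes, 43.5% of them, at an adjusted p under 0.05. They were split into 2997 higher (21.8% of those tested) and 2980 lower (21.7%) with IL-13, and these shares are the background for every count of list members below. Called genes with at least a 2-fold change numbered 613 higher (4.46%) and 776 lower (5.64%). Large changes leaned to increases: 197 genes rose and 126 fell by at least 4-fold, 73 and 35 by at least 8-fold, and 37 and 9 by at least 16-fold. Most increases were small, with 56.4% of them under 1.5-fold, against 44.7% of the decreases. The median log2 fold change of all tested genes was -0.01. Scaling by library totals alone moved that median by -0.17 and changed the split to 1822 higher and 4651 lower, so counts of list members that change their balance under that scaling are printed with both values. Of the 46 lists described, 33 had more members higher than lower and 13 the reverse. That balance changed in 14 with library totals alone, in 0 with RLE scaling and in 1 with DESeq2. In bulk RNA, fewer cells of a type and less RNA per cell cannot be told apart.

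**Figure D1:**
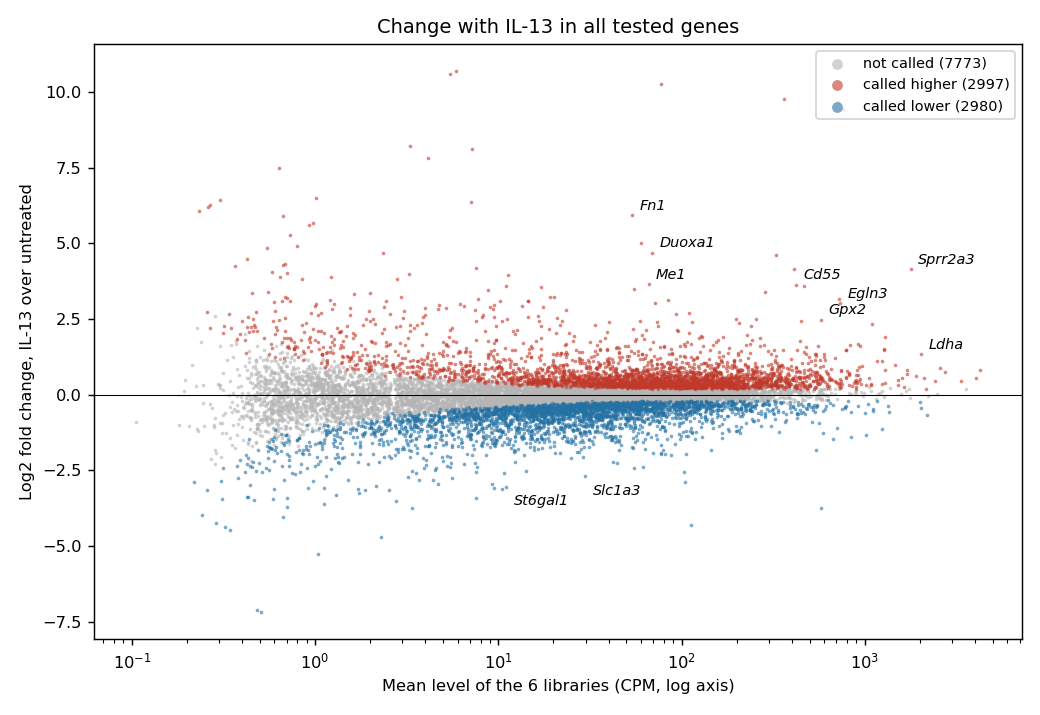
Log2 fold change of IL-13 over untreated (vertical axis) against the mean level of the 6 libraries in CPM (horizontal log axis) for the 13750 genes tested; called genes are coloured by direction and a few that the text names are labelled. The 37 genes called at 16-fold or more higher outnumber the 9 at 16-fold or more lower.

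Among the genes that rose most beyond gasdermin C (Gsdmc2, Gsdmc3 and Gsdmc4) were genes of the extracellular matrix, oxidant production and lipid handling. Fn1, which encodes the matrix protein fibronectin (ENSMUSG00000026193, chromosome 1, 71585523 to 71653171, mm10), stood at 1.85, 1.42 and 1.94 CPM in the untreated libraries and 104, 121 and 91.7 CPM with IL-13 (log2 fold change 5.93, SE 0.20, edgeR adjusted p = 7.8e-14). Genes of largest change were named only if their groups did not overlap, so the separation of its libraries adds no support. Capn13, a calpain protease, rose from 3.66 ± 0.12 to 117 ± 7.5 CPM (log2 fold change 5.00, SE 0.12, edgeR adjusted p = 2.4e-15). Sox7, a transcription factor, rose from 0.15 ± 0.163 to 14.1 ± 3.36 CPM. The lectin Mbl2 rose from 0.749 ± 0.442 to 14.3 ± 3.92 CPM. The aquaglyceroporin Aqp7 rose from 1.36 ± 0.432 to 21.3 ± 1.9 CPM. The retinoic acid receptor Rarb rose from 1.46 ± 0.242 to 16.2 ± 1.69 CPM. For Sox7 the log2 fold change was 6.36, and 7.48 when untreated replicate 2 was left out. For Mbl2 it was 4.19, and 4.81 when that library was left out. Tgfbi, a secreted adhesion protein, rose from 49.3 ± 1.66 to 523 ± 33.3 CPM (log2 fold change 3.41, SE 0.09, edgeR adjusted p = 2.4e-15). Rarb and Tgfbi were not among the 20 genes of largest increase and were picked with their values in view.

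The genes that fell most included enzymes of glycan and glucose metabolism and membrane transporters. St6gal1, a sialyltransferase, stood at 18, 20.2 and 21 CPM in the untreated libraries and 1.87, 1.99 and 3.27 CPM with IL-13 (log2 fold change -3.04, SE 0.23, edgeR adjusted p = 6.1e-09). Slc1a3, a glutamate transporter, fell from 51.9 ± 4.14 to 7.96 ± 0.927 CPM (log2 fold change -2.70, SE 0.15, edgeR adjusted p = 1.4e-10). Slc14a1, a urea transporter, fell from 175 ± 28.3 to 29.6 ± 2.5 CPM (log2 fold change -2.57, SE 0.21, edgeR adjusted p = 2e-08). Clca3b, a member of the calcium-activated chloride channel regulator family, fell from 184 ± 2.07 to 24.7 ± 5.96 CPM. Id4, an inhibitor of helix-loop-helix transcription factors, fell from 5.58 ± 1.12 to 0.838 ± 0.256 CPM. Tnfrsf8, the receptor CD30, fell from 9.71 ± 2.71 to 1.42 ± 0.641 CPM. Slc7a15, of the amino acid transporter family SLC7, fell from 12.9 ± 2.27 to 2.2 ± 0.299 CPM.

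Some of the large changes came in runs of neighbouring genes. Runs of 3 or more tested neighbours that were all called in 1 direction by at least 4-fold numbered 9, of which 7 were higher and 2 lower. Outside the gasdermin C run, Duox2, Duoxa2 and Duoxa1 formed one on chromosome 2 (122279247 to 122313730), with log2 fold changes of 4.14, 4.63 and 4.69; they encode a hydrogen peroxide producing oxidase and its maturation factors. Duoxa1 stood at 4.71, 6.04 and 4.71 CPM in the untreated libraries and 144, 117 and 139 CPM with IL-13. Cd55, which protects cells from complement, lay on chromosome 1 (130422824 to 130557075) among 3 predicted genes, from Gm15674 to Gm16083, and rose from 63.2 ± 2.54 to 781 ± 121 CPM. Gml, Gml2 and 2010109I03Rik, from the region of Ly6 family genes on chromosome 15 (74813454 to 74881704), all rose, Gml and Gml2 by 3.23 and 2.95 on the log2 scale. Syt12, 2010003K11Rik and Pcx made up the run on chromosome 19 (4445908 to 4621752), and Sprr2a1 to Sprr2a3 that on chromosome 3 (92215835 to 92289247). The run on chromosome 7 (45621811 to 45666308) went from Izumo1 to Fut2, with Izumo1 under 1 CPM in all 6 libraries and not called without IL-13 replicate 1 (edgeR adjusted p = 0.05). Both runs that fell were families of detoxification and defence genes: Ugt2b36 to Ugt2a3 on chromosome 5 (87065927 to 87337195) and Reg3a to Reg3g on chromosome 6 (78380709 to 78468872). Reg3a had a log2 fold change of -3.61, and of -4.21 without IL-13 replicate 3, and Sprr2a1 of 3.89, and of 4.49 without untreated replicate 1. Genes in such runs overlap or are copies in part, and no source used here says whether counting used strand, so reads of neighbours may have been shared.

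The receptor and feedback genes of the pathway rose more often than they fell with TMM scaling, but not with library totals alone. Of 27 genes of the receptor, JAK, STAT, SOCS and phosphatase list, 15 rose and 4 fell. Their median log2 fold change was 0.21; with library totals alone the counts were 6 and 8. Socs1, an inhibitor of JAK kinases, stood at 1.72, 2.03 and 2.77 CPM in the untreated libraries and 21.5, 17.2 and 16.5 CPM with IL-13 (log2 fold change 3.10, SE 0.19, edgeR adjusted p = 5.4e-10). Socs2 rose from 65.4 ± 0.863 to 198 ± 31.2 CPM. Cish, another inhibitor of the family, rose from 38.3 ± 0.302 to 88.5 ± 9.02 CPM. The untreated and treated libraries of Socs1, Socs2 and Cish did not overlap. These genes were picked with their values in view, and the share of all tested genes without overlap is not given here. The kinase gene Jak2 rose from 103 ± 10.6 to 156 ± 4.51 CPM. The repressor Bcl6 rose from 17.8 ± 2.23 to 27.7 ± 3.09 CPM. Stat6 itself stood at 240.2, 240.0 and 234 CPM untreated against 239, 223 and 232 CPM after IL-13 (adjusted p = 0.66 in edgeR), and Stat5a fell from 8.51 ± 0.693 to 5.47 ± 0.104 CPM.

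The promoters of the genes were searched for the palindrome TTCNNNNGAA, the spacing to which STAT6 is known to bind, in the 300 bases from 250 before to 50 after the start site (RefSeq, GRCm38.p6). Every motif was searched on both strands, and overlaps between motifs were not removed. A promoter was found for 10361 of the 13750 tested genes, and 6.42% of these held the motif. Among genes that rose by at least 4-fold it was in 10 of 147 (6.80%), and among those that fell by as much in 4 of 77 (5.19%). The 3-base spacing of other STAT proteins, TTCNNNGAA, was in 8.41% of all, 8.16% of the former and 5.19% of the latter. These shares lie near the background. Stretches with the motif in capitals are shown for Slc28a1, a nucleoside transporter (chr7:81114712-81114798, plus strand), Slc6a19, a neutral amino acid transporter (chr13:73692786-73692875, minus strand), Edn1, endothelin (chr13:42301251-42301340, plus strand), and Sprr2a3, a cornified-envelope protein (chr3:92285088-92285177, plus strand).
Slc28a1: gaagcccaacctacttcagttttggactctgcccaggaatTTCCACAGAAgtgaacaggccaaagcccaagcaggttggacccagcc
Slc6a19: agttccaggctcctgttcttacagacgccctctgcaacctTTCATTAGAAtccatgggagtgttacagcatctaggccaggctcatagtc
Edn1: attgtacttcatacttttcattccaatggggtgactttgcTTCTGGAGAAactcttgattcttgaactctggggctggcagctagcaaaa
Sprr2a3: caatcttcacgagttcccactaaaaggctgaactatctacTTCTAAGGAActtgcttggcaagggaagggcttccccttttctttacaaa
The motif began 47, 199, 185 and 176 bases before the start site. Sprr2a1 and Sprr2a2 hold the same 90 bases as Sprr2a3, which shows how alike the 3 copies are, so the level of each single copy is uncertain. Sprr2a3 stood at 203, 191 and 181 CPM in the untreated libraries and 3927, 3159.7 and 3035 CPM with IL-13. Edn1 rose from 36.3 ± 4.52 to 155 ± 13.8 CPM. Slc6a19 rose from 19.5 ± 1.45 to 88.6 ± 16.3 CPM. Slc28a1 had 3, 0 and 0 counts untreated and 232, 190 and 195 with IL-13, a count ratio of 317 with a 95% counting interval from 108 to 1542. Its log2 fold change was 8.10, and 10.93 or 7.51 without untreated replicate 1 or 2, with 3 counts in all in the untreated libraries.

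Genes of the integrated stress response, in which phosphorylated eIF2α favours translation of ATF4, rose more often than they fell. Of 31 tested, 18 rose and 5 fell. The list's median log2 fold change was 0.48. Trib3, a pseudokinase that ATF4 induces, stood at 61.2, 80.9 and 69 CPM in the untreated libraries and 288, 257 and 249 CPM with IL-13 (log2 fold change 1.91, SE 0.12, edgeR adjusted p = 1.2e-09). Ddit3, which encodes the transcription factor CHOP, stood at 47.3, 57.2 and 56.9 CPM in the untreated libraries and 155, 188 and 169 CPM with IL-13 (log2 fold change 1.67, SE 0.10, edgeR adjusted p = 6.8e-10). Ppp1r15a, which directs the dephosphorylation of eIF2α, rose from 24.4 ± 0.288 to 74.4 ± 2.51 CPM (log2 fold change 1.61, SE 0.11, edgeR adjusted p = 1.7e-09). Gdf15, a secreted stress hormone, rose from 132 ± 13 to 401 ± 52.5 CPM (log2 fold change 1.60, SE 0.14, edgeR adjusted p = 3.7e-08). The groups of these 4 genes, which were picked with their values in view, did not overlap. Atf4 rose from 636 ± 26.9 to 1002 ± 25.9 CPM. The asparagine synthetase Asns rose from 155 ± 13.4 to 241 ± 14.1 CPM. The glutathione-degrading Chac1 rose from 82.9 ± 10.6 to 140.1 ± 9.84 CPM. The cystathionine lyase Cth rose from 113 ± 1.85 to 178 ± 11.6 CPM. Other amino acid enzymes of the list were lower: Shmt2 of mitochondrial serine metabolism from 113 ± 14.9 to 80.7 ± 4.14 CPM, Aldh18a1 of proline synthesis from 259 ± 14.6 to 184 ± 8.25 CPM, and Psat1 of serine synthesis from 212 ± 7.93 to 164 ± 4.81 CPM. Of the 4 kinases that phosphorylate eIF2α, Eif2ak1, Eif2ak2, Eif2ak3 and Eif2ak4, none was called, with log2 fold changes of 0.01, 0.13, 0.21 and -0.25.

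The ATF4 element TGATGNAA was found in 7 of the 28 list members with a promoter, against 2.70% of all tested genes with one. Of the 7, 6 rose and 1, Pck2, fell, and Pck2 lost its call without untreated replicate 2 or 3 or IL-13 replicate 1 or 2. The list is made largely of known ATF4 targets, so the match describes these promoters and is no evidence of what acted on them. Asns (chr6:7693210-7693272, minus strand), Slc7a11 (chr3:50443614-50443719, minus strand), Chac1 (chr2:119351009-119351096, plus strand), Vldlr (chr19:27216780-27216867, plus strand), Nupr1 (chr7:126625533-126625620, minus strand) and Trib3 (chr2:152344029-152344056, minus strand) are shown with the element in capitals.
Asns: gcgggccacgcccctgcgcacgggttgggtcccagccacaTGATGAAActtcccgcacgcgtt
Slc7a11: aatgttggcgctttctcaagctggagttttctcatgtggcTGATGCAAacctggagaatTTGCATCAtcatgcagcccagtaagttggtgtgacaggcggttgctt
Chac1: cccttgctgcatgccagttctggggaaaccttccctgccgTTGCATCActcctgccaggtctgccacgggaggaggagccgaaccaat
Vldlr: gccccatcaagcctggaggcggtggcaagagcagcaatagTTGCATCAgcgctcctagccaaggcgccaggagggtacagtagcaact
Nupr1: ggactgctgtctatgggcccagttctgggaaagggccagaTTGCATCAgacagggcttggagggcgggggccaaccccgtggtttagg
Trib3: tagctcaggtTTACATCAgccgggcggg
On these sequences, read in the sense of each gene, Asns carries the forward form, Slc7a11 a forward and a reverse copy, and the others the reverse form. Slc7a11, the cystine transporter, rose from 81.7 ± 6.87 to 119 ± 5.26 CPM. Vldlr, a lipoprotein receptor, rose from 39.6 ± 3.36 to 66.1 ± 6.94 CPM. Nupr1, a stress-induced nuclear protein, rose from 125 ± 20.5 to 189 ± 14 CPM.

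Endoplasmic reticulum chaperones and foldases split. Of 29 genes tested, 9 rose and 5 fell (median log2 fold change -0.03), and with library totals alone 7 rose and 12 fell. The cochaperone Dnajb9 rose from 25.5 ± 1.77 to 58.4 ± 5.11 CPM (log2 fold change 1.19, SE 0.12, edgeR adjusted p = 2.7e-07). The membrane protein Wfs1 rose from 43.6 ± 1.65 to 86.4 ± 6.96 CPM. The chaperone BiP, Hspa5, rose from 779 ± 9.24 to 1115 ± 71.4 CPM. The sensor genes Ern1 and Atf6 rose, by 0.44 and 0.40 on the log2 scale, and the sensors Eif2ak3 and Ern2 were not called (0.21 and -0.22). Of the disulfide isomerases P4hb was not called (log2 fold change -0.08). Pdia6 fell from 99.8 ± 4.16 to 67.5 ± 2.03 CPM. Pdia4 fell from 121 ± 10.3 to 85.4 ± 3.62 CPM. The chaperone partner Sdf2l1 fell from 69.7 ± 1.21 to 49.3 ± 0.588 CPM. Xbp1, Calr and Herpud1 were not called, with log2 fold changes of 0.14, 0.00 and -0.02. The element TGACGTGG was in 0 of 23 promoters of the list and in 0.984% of all. Of 48 genes of the secretory machinery 15 rose and 6 fell (7 and 13 with library totals alone), among them the cargo receptor Mcfd2 (0.69) and the coat protein Sec23a (0.68) up and the signal peptidase subunit Spcs3 (-0.51) down, as log2 fold changes.

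NRF2 targets, which supply glutathione, thioredoxin and NADPH, rose in 17 of 27 cases and fell in 4 (13 and 6 by library totals). The median change of the list was, as log2 fold change, 0.33. The malic enzyme Me1, which makes NADPH from malate, stood at 11.2, 9.28 and 8.65 CPM in the untreated libraries and 143, 114 and 111 CPM with IL-13 (log2 fold change 3.65, SE 0.15, edgeR adjusted p = 1.7e-12). G6pdx, the entry enzyme of the pentose phosphate pathway, stood at 59.1, 51.7 and 48.5 CPM in the untreated libraries and 198, 196 and 193 CPM with IL-13 (log2 fold change 1.88, SE 0.09, edgeR adjusted p = 8.2e-12); the near-copy G6pd2 also rose, from 92 ± 4.05 to 364 ± 25.8 CPM, and shared reads make the level of each uncertain. Sulfiredoxin, Srxn1, rose from 404 ± 13 to 1257 ± 25.2 CPM. The peroxiredoxin Prdx1 rose from 106 ± 6.56 to 225 ± 33.7 CPM. The glutathione synthesis subunit Gclc rose from 101 ± 0.894 to 185 ± 6.17 CPM. Glutathione reductase, Gsr, rose from 341 ± 39.2 to 595 ± 12.8 CPM. Thioredoxin reductase, Txnrd1, rose from 489 ± 37 to 777 ± 45.7 CPM. Not every classical target moved with them. Nqo1 stood at 71.8, 66.9 and 69.4 CPM untreated against 65.4, 63.1 and 61.3 CPM after IL-13 (adjusted p = 0.18 in edgeR), Gclm had a log2 fold change of 0.16, and the gene of NRF2 itself, Nfe2l2, fell from 551 ± 25.2 to 447 ± 24.9 CPM, as did thioredoxin, Txn1, from 169.6 ± 14.6 to 124 ± 8.23 CPM.

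The NRF2 element TGACNNNGC was found in 9 of 23 promoters of the list and in 17.0% of all tested genes with a promoter. Of the 9, 7 rose and Nfe2l2 fell. This list, too, is made largely of known targets, so the match describes these promoters and is no evidence of what acted on them. Me1 (chr9:86695902-86695930, minus strand), G6pdx (chrX:74428889-74428977, minus strand), Prdx1 (chr4:116685426-116685514, plus strand), Txnrd1 (chr10:82859074-82859162, plus strand) and Srxn1 (chr2:152105542-152105570, plus strand) are shown with the element in capitals.
Me1: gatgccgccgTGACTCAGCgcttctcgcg
G6pdx: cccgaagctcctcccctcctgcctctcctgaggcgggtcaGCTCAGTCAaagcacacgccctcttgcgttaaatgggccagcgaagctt
Prdx1: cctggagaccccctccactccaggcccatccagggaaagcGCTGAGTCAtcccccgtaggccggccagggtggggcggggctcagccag
Txnrd1: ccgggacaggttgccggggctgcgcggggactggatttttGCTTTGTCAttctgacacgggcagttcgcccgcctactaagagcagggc
Srxn1: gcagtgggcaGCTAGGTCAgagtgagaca
In Me1 the element spans the start site, and in Srxn1 it begins 28 bases after it.

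Other oxidant defence genes moved in both directions. Of 23 antioxidant enzymes 7 rose and 5 fell (4 and 6 with library totals alone). Gpx2, the gastrointestinal glutathione peroxidase, stood at 188, 168 and 170.2 CPM in the untreated libraries and 1083, 938 and 907 CPM with IL-13 (log2 fold change 2.48, SE 0.09, edgeR adjusted p = 7.3e-13). Prdx5 rose from 233 ± 4.17 to 451 ± 27.8 CPM. The mitochondrial superoxide dismutase Sod2 rose from 149 ± 5.55 to 215 ± 8.63 CPM. Catalase fell and the selenium carrier Selenop fell from 835 ± 32.7 to 343 ± 16.6 CPM (log2 fold change -1.28, SE 0.10, edgeR adjusted p = 1.7e-08). Most heat shock genes were not called, with 4 of 23 higher and 3 lower (4 and 7 with library totals alone) and a median log2 fold change of 0.06. The inducible Hspa1a and Hspa1b, near-identical copies whose single levels are uncertain, rose by 1.54 and 0.80 on the log2 scale, Hspa1a at low levels from 0.698 ± 0.0813 to 2.05 ± 0.53 CPM. Hspa9, the mitochondrial chaperone, rose from 475 ± 2.23 to 620.2 ± 18.7 CPM. Hsp90ab1, the constitutive cytosolic one, fell from 1618 ± 23.5 to 1080.0 ± 67.6 CPM.

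**Figure D2:**
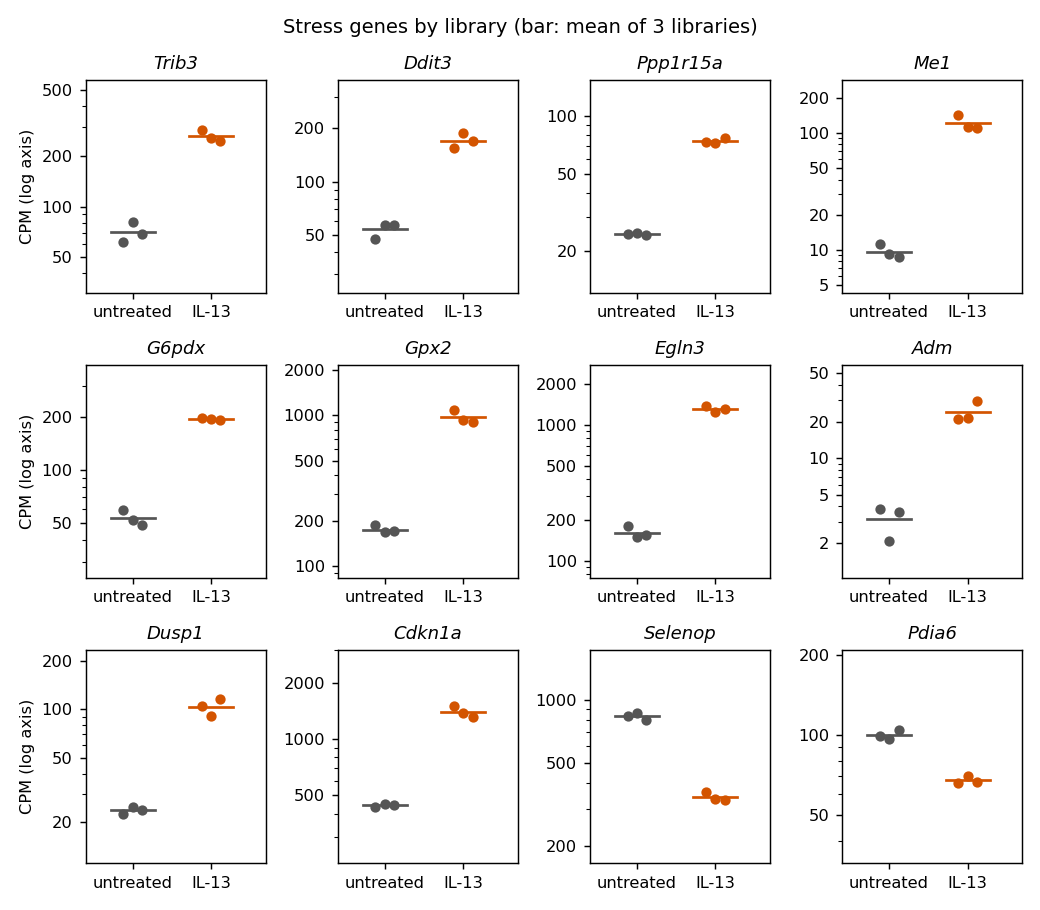
Level in CPM (vertical log axis) of 12 genes of the stress lists in each of the 3 untreated and 3 IL-13 libraries, 1 point per library with a bar at the group mean. For Trib3, Ddit3, Ppp1r15a, Me1, G6pdx, Gpx2, Egln3, Adm, Dusp1 and Cdkn1a every treated library lies above every untreated one, and for Selenop and Pdia6 every treated library lies below. The 12 genes were picked with their values in view.

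Metal handling genes rose in 12 of 26 cases and fell in 4 (9 and 7 by library totals). Among iron genes, ferroportin, Slc40a1, rose from 168 ± 25.3 to 469 ± 77.9 CPM (log2 fold change 1.48, SE 0.14, edgeR adjusted p = 1.1e-07). The ferroxidase Heph rose from 212 ± 13.4 to 352 ± 9.57 CPM. The iron importer Slc11a2 rose from 257 ± 44.9 to 440.2 ± 21.5 CPM. The reductase Cybrd1 rose from 65.1 ± 8.48 to 95.8 ± 7.67 CPM. The zinc importer Slc39a4 rose from 222 ± 16.5 to 401 ± 14.1 CPM. The zinc and manganese carrier Slc39a8 fell from 137 ± 4.9 to 55.9 ± 3.63 CPM. Slc39a5 fell from 52.5 ± 2.81 to 25.6 ± 1.48 CPM.

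Genes of the hypoxia response rose in 14 of 26 cases and fell in 2. As a log2 fold change, the list's median was 0.46. Egln3, a prolyl hydroxylase that marks HIF proteins for destruction and is itself a HIF target, stood at 179, 151 and 155 CPM in the untreated libraries and 1370.2, 1245 and 1307 CPM with IL-13 (log2 fold change 3.02, SE 0.09, edgeR adjusted p = 2e-14). Its highest untreated library was far under its lowest treated one. Adm, the peptide adrenomedullin, stood at 3.78, 2.07 and 3.6 CPM in the untreated libraries and 20.8, 21.2 and 29.3 CPM with IL-13 (log2 fold change 2.93, SE 0.20, edgeR adjusted p = 2.2e-09). The disulfide oxidase Ero1l rose from 116 ± 10.05 to 419 ± 26 CPM. The glucose transporter Slc2a1 rose from 137 ± 2.54 to 425 ± 17.1 CPM (log2 fold change 1.63, SE 0.08, edgeR adjusted p = 4.5e-11). Vegfa rose from 238 ± 13.2 to 467 ± 21 CPM. Hif1a rose from 95.4 ± 1.46 to 225 ± 14 CPM. Some targets did not rise. The kinase gene Pdk1 fell from 284 ± 17.3 to 227 ± 7.23 CPM. The carbonic anhydrase Car12 fell from 28.3 ± 3.27 to 16.7 ± 2.4 CPM. Ndrg1 stood at 331, 386 and 353 CPM untreated against 375, 361 and 385 CPM after IL-13 (adjusted p = 0.53 in edgeR). Oxygen was not measured in these data.

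Of 19 glycolysis genes 13 rose and 3 fell (median log2 fold change 0.53). Lactate dehydrogenase, Ldha, stood at 1210.0, 1150.2 and 1103 CPM in the untreated libraries and 3076, 2815 and 2818 CPM with IL-13 (log2 fold change 1.33, SE 0.09, edgeR adjusted p = 1e-09), and its share of all counts went from 0.126% to 0.283%, which placed it among the 10 largest of the treated libraries. Hexokinase, Hk1, rose from 100.1 ± 3.36 to 260.3 ± 18.1 CPM. The lactate exporter Slc16a3 rose from 139.6 ± 14.8 to 322 ± 24.8 CPM. The aldolase isoform Aldoc fell from 69.5 ± 3.16 to 51.4 ± 1.81 CPM. Eno3 fell from 5.88 ± 0.348 to 2.36 ± 1.11 CPM. Gapdh rose from 27.5 ± 3.23 to 46.8 ± 4.14 CPM; it has many near-identical pseudogene copies, so its level is uncertain.

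In the citrate cycle and pyruvate list 21 of 27 genes rose and 3 fell (median log2 fold change 0.39). Pyruvate carboxylase, Pcx, which feeds oxaloacetate into the cycle, stood at 43.2, 43.1 and 42.6 CPM in the untreated libraries and 178, 187 and 169 CPM with IL-13 (log2 fold change 2.05, SE 0.10, edgeR adjusted p = 2.8e-11). The oxoglutarate dehydrogenase Ogdh rose from 550.5 ± 29.3 to 938 ± 49.9 CPM. The malate dehydrogenase Mdh2 rose from 419 ± 10.5 to 673 ± 44.9 CPM. The pyruvate carrier subunit Mpc2 rose from 84.1 ± 6.51 to 146 ± 14.3 CPM. Idh2 fell from 67.9 ± 1.97 to 39.96 ± 5.23 CPM. Pdk3, an inhibitory kinase of pyruvate dehydrogenase, fell from 10.4 ± 0.729 to 5.72 ± 0.463 CPM. The respiratory chain and ATP synthase list had 50 of 71 genes higher and 0 lower. Their median log2 fold change was 0.39. With library totals alone 25 were higher and 2 lower. Cytochrome c1, Cyc1, rose from 259.7 ± 9.07 to 423 ± 14.4 CPM (log2 fold change 0.70, SE 0.09, edgeR adjusted p = 8.7e-06). The complex I subunit Ndufv1 rose from 221 ± 10.6 to 326 ± 17.3 CPM. The ATP synthase subunit Atp5b rose from 1716 ± 22.8 to 2485 ± 61.4 CPM. Ppargc1a and Ppargc1b, coactivators of mitochondrial genes, and their partner Esrra rose as well, by 0.67, 1.05 and 0.76 on the log2 scale. No mitochondrially encoded gene is in the table used here.

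**Figure D3:**
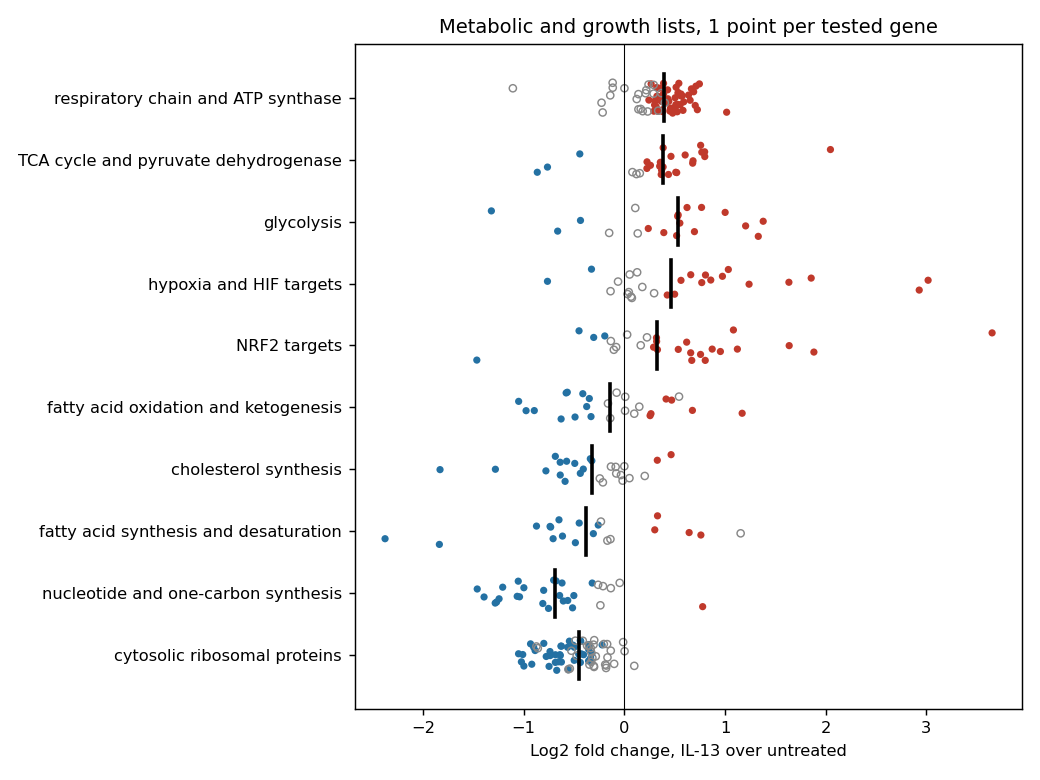
Log2 fold change of IL-13 over untreated for each tested gene of 10 lists (1 point per gene; filled when called, open when not; the bar is the list's median). The respiratory chain, citrate cycle, glycolysis and hypoxia lists lie mostly above 0, and the ribosomal protein, nucleotide synthesis, fatty acid synthesis and cholesterol lists mostly below.

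Of 72 cytosolic ribosomal protein genes 0 rose and 41 fell. The list's median log2 fold change was -0.45. Rpl22 fell from 214 ± 10.7 to 105 ± 2.66 CPM (log2 fold change -1.02, SE 0.10, edgeR adjusted p = 1.4e-07). Rpl4 fell from 288 ± 29.1 to 213 ± 4.49 CPM. Rps3 fell from 266 ± 6.02 to 208 ± 10.04 CPM. Most of these genes have processed pseudogenes that share their sequence, so single levels are uncertain, and Rps27 had only 13, 14 and 15 counts untreated and 9, 9 and 6 with IL-13. Of 36 ribosome assembly genes 16 were lower and 2 higher (26 and 0 with library totals alone). Nucleophosmin, Npm1, fell from 89.1 ± 6.88 to 49 ± 5.26 CPM. Nucleolin, Ncl, fell from 611 ± 17.4 to 433 ± 5.45 CPM. Nucleotide and one-carbon synthesis genes fell in 22 of 28 cases (median log2 fold change -0.69). Dut, which removes dUTP, stood at 57.7, 59.8 and 65.1 CPM in the untreated libraries and 18.8, 23.1 and 24.3 CPM with IL-13 (log2 fold change -1.46, SE 0.13, edgeR adjusted p = 5.8e-08). Thymidylate synthase, Tyms, fell from 12 ± 1.6 to 4.57 ± 1.54 CPM. The purine enzyme Paics fell from 57.4 ± 2.04 to 27.7 ± 3.38 CPM. The lone increase in that list was Adss, of AMP synthesis, from 149.5 ± 12.7 to 256 ± 25.6 CPM. The stem cell marker sum was lower beside these lists, as given above, and its part in them was not tested. Of 22 cytosolic tRNA synthetase genes 7 rose and 4 fell (2 and 7 with library totals alone), with Rars and Nars up by 0.52 and 0.36 and Vars down at -0.47 on the log2 scale.

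Immediate early genes and the feedback inhibitors of MAP kinase signalling mostly rose at 72 h of treatment. Of 31 tested, 24 rose and 1 fell. The median change of the list was, as log2 fold change, 0.75. The phosphatase Dusp1 stood at 22.5, 24.8 and 24 CPM in the untreated libraries and 105, 90.6 and 116 CPM with IL-13 (log2 fold change 2.13, SE 0.14, edgeR adjusted p = 1.4e-09). The AP-1 genes Fosl1, Jun, Fosl2 and Fos rose by 1.59, 1.26, 1.03 and 0.99 on the log2 scale, Atf3 by 1.37, and the feedback genes Dusp6 and Spry4 by 1.10 and 1.29. Egr1 stood at 98.6, 100.1 and 102 CPM untreated against 101, 123 and 123 CPM after IL-13 (adjusted p = 0.22 in edgeR), and its untreated and treated ranges overlapped. Myc was the 1 member that fell, from 205 ± 11.1 to 153 ± 7.35 CPM. Of 7 tested ligands of the EGF receptor family 5 rose, while Egf and Epgn were not called (log2 fold changes -0.58 and 1.15), and the call of Tgfa was lost with library totals alone, with no filter, and without any 1 library other than untreated replicate 1. Amphiregulin, Areg, stood at 273, 276 and 269.6 CPM in the untreated libraries and 864, 859 and 784 CPM with IL-13 (log2 fold change 1.62, SE 0.07, edgeR adjusted p = 8.4e-12). Epiregulin, Ereg, rose from 28.2 ± 5.71 to 77.5 ± 8.18 CPM. Betacellulin, Btc, rose from 107 ± 10.9 to 195 ± 11.7 CPM. The receptor genes Erbb2 and Erbb3 had log2 fold changes of -0.40 and -0.35.

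p53 targets rose in 11 of 26 cases and fell in 3. The cell cycle inhibitor Cdkn1a stood at 435, 448 and 446 CPM in the untreated libraries and 1505, 1384 and 1323 CPM with IL-13 (log2 fold change 1.66, SE 0.08, edgeR adjusted p = 8.4e-12). The kinase gene Plk3 rose from 11.2 ± 1.42 to 28.4 ± 2.58 CPM. Phlda3, an inhibitor of AKT, rose from 107 ± 5.22 to 198 ± 8.51 CPM. Btg2 rose from 154 ± 1.17 to 256 ± 15.7 CPM. Sesn1 fell from 204 ± 17.4 to 94.6 ± 5.55 CPM. Of the pro-apoptotic targets Pmaip1 rose from 188 ± 11.9 to 306 ± 22.2 CPM, and Bax and Bbc3 were not called (log2 fold changes 0.16 and -0.03). Among cell death genes other than gasdermin C, 13 of 34 rose and 7 fell; with library totals alone 9 rose and 10 fell. The initiator caspase gene Casp8 rose from 156 ± 2.84 to 241 ± 8.91 CPM. Ripk3 rose from 205 ± 14.4 to 338 ± 38.9 CPM. Mlkl rose from 17.9 ± 0.311 to 27.2 ± 1.28 CPM. Inflammasome genes moved both ways: the sensor Nlrp1b rose by 0.74 on the log2 scale and Nlrp6 was not called (0.19). The adaptor Pycard stood at 258, 295 and 305 CPM in the untreated libraries and 110.2, 142 and 129 CPM with IL-13 (log2 fold change -1.17, SE 0.11, edgeR adjusted p = 1.9e-07). Casp1 fell from 158 ± 4.18 to 114 ± 6.6 CPM. Casp4 fell from 36.5 ± 1.36 to 21.1 ± 1.61 CPM. Among survival genes Bcl2 fell from 23 ± 0.972 to 12.4 ± 1.59 CPM. The survival genes Bcl2l1, Bcl2l2, Mcl1 and Cflar were called higher, with log2 fold changes of 0.41, 0.24, 0.33 and 0.33; the last 3 lost their calls with library totals alone, Bcl2l2 also without untreated replicate 1, untreated replicate 2 or IL-13 replicate 2, and Cflar without untreated replicate 3 or IL-13 replicate 3. Gsdmd, the gasdermin that inflammatory caspases cut, rose from 179 ± 5.06 to 244 ± 10.3 CPM. Gsdme fell from 12.7 ± 0.753 to 7.68 ± 1.33 CPM.

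Inflammatory genes did not move as 1 group. Of 28 NF-kB and cytokine genes 9 rose and 5 fell (4 and 8 with library totals alone). The alarmin Il33 rose from 61.8 ± 5.79 to 112 ± 14.3 CPM. The chemokine Cxcl16 rose from 148 ± 2.33 to 260.3 ± 7.74 CPM. The mucosal chemokine Ccl28 stood at 131, 117 and 121 CPM in the untreated libraries and 29.3, 37.5 and 37.3 CPM with IL-13 (log2 fold change -1.82, SE 0.15, edgeR adjusted p = 2e-08). The death ligand Tnfsf10 fell from 67.3 ± 5.67 to 23.6 ± 2.08 CPM. MHC class I genes rose in 7 of 17 cases and fell in 1 (3 and 3 with library totals alone), with H2-D1 up from 332 ± 26 to 483 ± 22 CPM. H2-T3 fell from 74.9 ± 3.84 to 46.3 ± 4.76 CPM; these genes are close relatives whose reads may be shared. Proteasome subunits were called higher in 9 of 31 cases and lower in 1, but 1 and 4 with library totals alone. Of 35 autophagy and lysosome genes 14 rose and 4 fell (10 and 11 with library totals alone); the cargo receptor Sqstm1, which is also an NRF2 target, rose from 236 ± 15.5 to 463 ± 2.61 CPM. The proteases Ctsc and Ctsb rose from 151 ± 11.9 to 260.3 ± 3.85 CPM and 534 ± 11.8 to 772 ± 32.7 CPM.

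Synthesis of sterols and fatty acids fell in most of its genes. Cholesterol synthesis had 13 of 25 genes lower and 2 higher (median log2 fold change -0.32), with Acat2, the first enzyme of the path, down from 93 ± 14.9 to 38.3 ± 0.858 CPM. Mvd fell from 72.7 ± 0.574 to 42.4 ± 1.94 CPM. Srebf2, the regulator of the pathway, was not called (log2 fold change 0.05), and Msmo1 rose from 306 ± 19.7 to 423 ± 55.1 CPM. Fatty acid synthesis and desaturation had 12 of 20 lower and 4 higher (15 and 2 by library totals). Both desaturases of polyunsaturated fatty acids were among the larger decreases: Fads1 stood at 115, 97.9 and 98.9 CPM in the untreated libraries and 15.2, 18.5 and 26.2 CPM with IL-13 (log2 fold change -2.38, SE 0.14, edgeR adjusted p = 4.6e-10). Fads2 fell from 71.3 ± 6.55 to 19.96 ± 2.52 CPM (log2 fold change -1.84, SE 0.16, edgeR adjusted p = 6e-08). Fasn fell from 128 ± 4.78 to 81.6 ± 11.6 CPM. Acly fell from 128 ± 3.62 to 77.3 ± 4.96 CPM. The acyl-CoA synthetases Acsl1 and Acsl5 rose from 81.6 ± 7.29 to 138 ± 2.09 CPM and 244 ± 4.57 to 381 ± 29.1 CPM.

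Of 25 genes of fatty acid oxidation 11 were lower and 6 higher (14 and 4 by library totals). Hadh, a dehydrogenase of the cycle, fell from 451 ± 14.5 to 292 ± 17.1 CPM. The receptor Ppara fell from 15.2 ± 2.19 to 7.33 ± 1.68 CPM. Acadvl rose from 39.6 ± 1.99 to 63.3 ± 0.934 CPM. Among 26 lipid uptake and lipoprotein genes 11 rose and 7 fell (8 and 7 with library totals alone). The lipoprotein genes Mttp and Apoa1 were not called (log2 fold changes 0.18 and 0.22), and the lipid droplet gene Plin2 had a log2 fold change of -0.34. The triglyceride synthesis gene Mogat2 rose from 123 ± 7.24 to 225 ± 5.64 CPM. Dgat2 rose from 122 ± 6.4 to 202 ± 4.1 CPM. Apoa4 rose from 353 ± 8.84 to 573 ± 12.7 CPM. Fabp2 fell from 43.4 ± 1.7 to 11.7 ± 1.55 CPM. The sterol exporters Abca1, Abcg5 and Abcg8 had log2 fold changes of -1.36, -0.46 and -0.61. Glycerol kinase, Gk, which is on no list and was picked with its values in view, rose from 15.6 ± 1.93 to 127 ± 10.5 CPM (log2 fold change 3.03, SE 0.16, edgeR adjusted p = 7.4e-11), beside the glycerol channel Aqp7. The bile acid exporter subunits Slc51a and Slc51b rose from 19 ± 0.662 to 52.5 ± 4.17 CPM and 6.89 ± 0.173 to 30.8 ± 3.72 CPM. Abcc2 rose from 157 ± 7.71 to 301 ± 24.4 CPM, with 5 of 11 bile acid genes higher and 0 lower (4 and 1 by library totals). Of 16 genes of sugar digestion and glucose synthesis 3 rose and 6 fell, so glucose uptake and release are given gene by gene. The sodium-glucose transporter Slc5a1 stood at 1881, 1873 and 1616 CPM in the untreated libraries and 3512, 3307 and 3174 CPM with IL-13 (log2 fold change 0.90, SE 0.09, edgeR adjusted p = 1.7e-07). Glucose-6-phosphatase, G6pc, stood at 19, 21.6 and 15.9 CPM in the untreated libraries and 1.51, 2.95 and 1.97 CPM with IL-13 (log2 fold change -3.13, SE 0.22, edgeR adjusted p = 3.9e-09). Fbp1 fell from 82.6 ± 2.02 to 39.5 ± 8.16 CPM. Lactase, Lct, fell from 160.1 ± 4.51 to 68 ± 17.4 CPM. Sucrase-isomaltase, Sis, was not called (log2 fold change 0.26).

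Detoxification genes fell more often than they rose. Of 34 cytochrome P450 and other phase I genes 10 rose and 15 fell (8 and 19 by library totals), and of 38 conjugation genes 6 rose and 17 fell. Cyp2b10, a drug-inducible enzyme, fell from 43.7 ± 9.11 to 12.6 ± 1.7 CPM (log2 fold change -1.79, SE 0.18, edgeR adjusted p = 3.4e-07). Cyp2e1 fell from 7.74 ± 0.579 to 1.1 ± 0.432 CPM. The aldehyde dehydrogenase Aldh1b1 fell from 1230.0 ± 28.5 to 461 ± 63.6 CPM. The alcohol dehydrogenase Adh1 fell from 280.0 ± 12 to 122 ± 19.4 CPM. The carboxylesterases Ces2a, Ces2e and Ces1d had log2 fold changes of -2.58, -1.37 and -2.83, the last -3.51 without IL-13 replicate 3, and the glucuronosyltransferase Ugt2a3 stood at 76, 68.1 and 66.5 CPM in the untreated libraries and 14.8, 16.1 and 13.7 CPM with IL-13 (log2 fold change -2.24, SE 0.17, edgeR adjusted p = 1e-08). These families hold close copies, so single levels are uncertain. The increases included the glutathione transferase Gsto1, from 412 ± 18.4 to 1158 ± 89.4 CPM, the sulfotransferase Sult2b1, from 20.7 ± 2.62 to 57.3 ± 3.46 CPM, and Papss2, which makes the sulfate donor, from 123 ± 8.47 to 265 ± 45 CPM. Cyp1a1, the classical target of the aryl hydrocarbon receptor, had 1, 0 and 1 counts untreated and 35, 22 and 25 with IL-13, a count ratio of 63.2 with a 95% counting interval from 17.0 to 531.

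**Figure D4:**
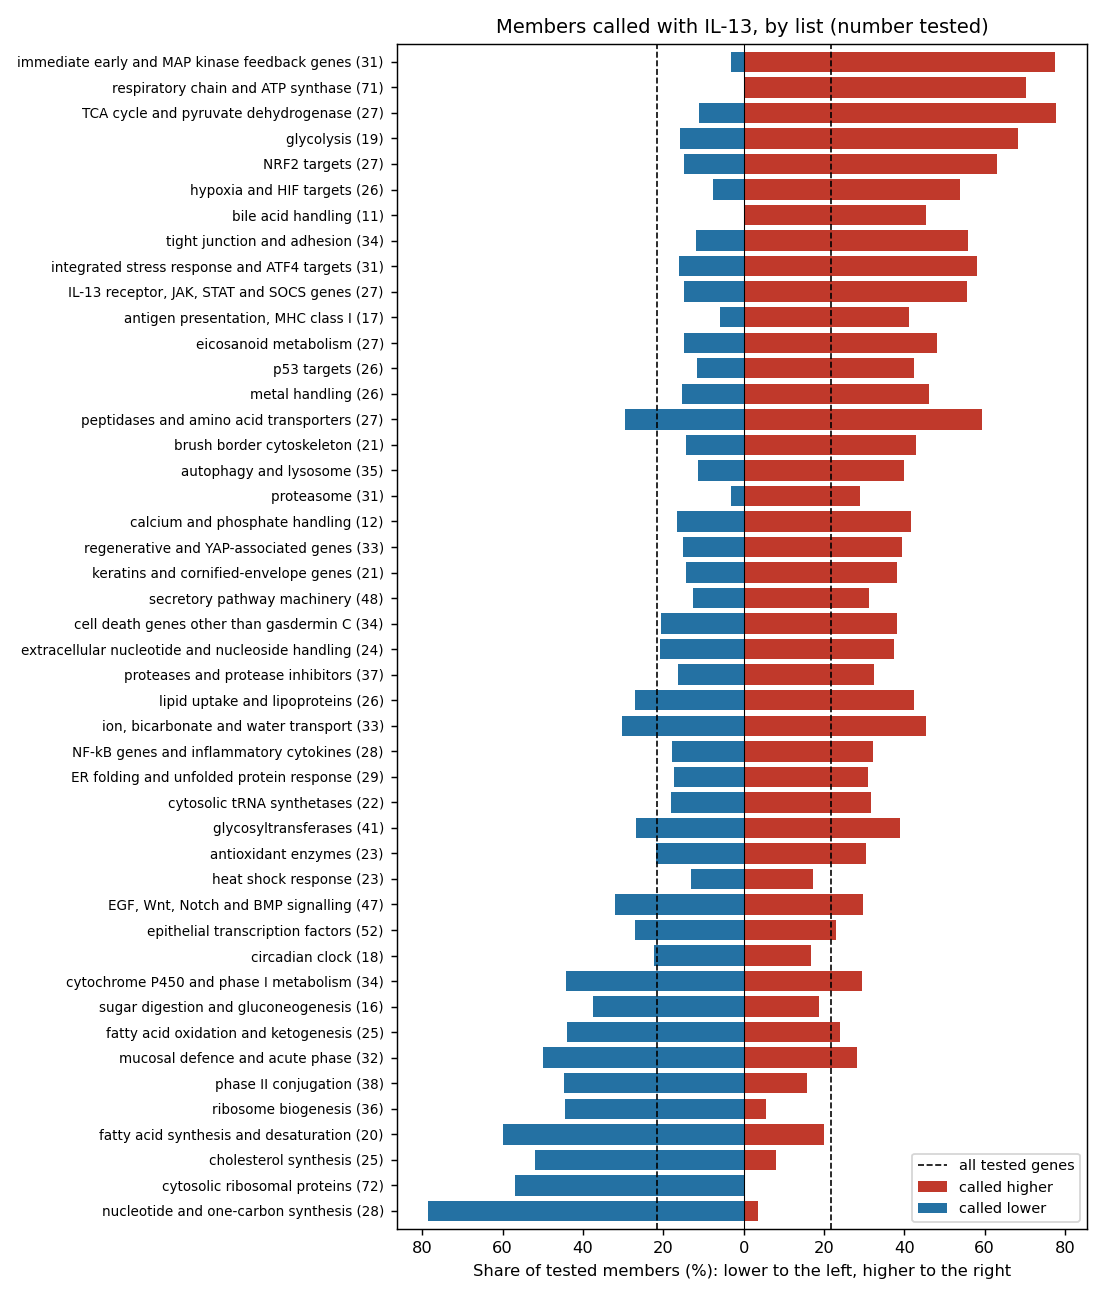
Share of the tested members of each of the 46 lists that were called higher (right of 0) or lower (left of 0) with IL-13, in percent; dashed lines mark the shares among all tested genes, 21.8% higher and 21.7% lower. Respiratory chain, immediate early and citrate cycle genes reach furthest to the right, and nucleotide synthesis, fatty acid synthesis and ribosomal protein genes furthest to the left.

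Carriers of amino acids and peptides moved in both directions, with more increases. Of 27 peptidases and amino acid transporters 16 rose and 8 fell (13 and 10 by library totals). The peptide transporter Slc15a1 stood at 6.85, 5.35 and 3.33 CPM in the untreated libraries and 32.1, 25.1 and 27.5 CPM with IL-13 (log2 fold change 2.43, SE 0.20, edgeR adjusted p = 1.7e-08). The neutral amino acid transporter Slc6a19 stood at 20.1, 20.7 and 17.9 CPM in the untreated libraries and 107, 78.3 and 79.97 CPM with IL-13 (log2 fold change 2.18, SE 0.17, edgeR adjusted p = 8.2e-09). Ggt1, which cleaves extracellular glutathione, rose from 9.48 ± 1.21 to 39 ± 2.3 CPM. The creatine transporter Slc6a8 rose from 217 ± 5.51 to 443 ± 18.6 CPM. The aminopeptidase Anpep rose from 171 ± 7.96 to 331 ± 23.4 CPM. The aminopeptidase Enpep fell from 155 ± 13.8 to 71.8 ± 8.33 CPM. Neprilysin, Mme, fell from 63 ± 8.99 to 29.1 ± 1.4 CPM. The basolateral carriers Slc7a8 and Slc16a10 fell from 144 ± 8.16 to 60.7 ± 10.9 CPM and 98.1 ± 7.07 to 52.2 ± 7.84 CPM.

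Nucleoside handling moved at both ends, with 9 of 24 genes higher and 5 lower (6 and 8 with library totals alone). The ectonucleotidase Nt5e stood at 35.7, 36.8 and 36.4 CPM in the untreated libraries and 179.7, 179.9 and 213 CPM with IL-13 (log2 fold change 2.39, SE 0.12, edgeR adjusted p = 2.5e-11). The guanine deaminase Gda rose from 206 ± 27.7 to 439 ± 15.7 CPM. The uridine phosphorylase Upp1 rose from 19.1 ± 0.651 to 45.1 ± 0.84 CPM. The equilibrative carrier Slc29a1 fell from 43.7 ± 2.21 to 19.2 ± 0.263 CPM. Adenosine kinase, Adk, fell from 65.4 ± 5.61 to 38.4 ± 2.18 CPM.

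Of 33 genes of ion, bicarbonate and water transport 15 rose and 10 fell (11 and 12 with library totals alone). The brush border exchanger Slc9a3 stood at 74.5, 80.9 and 74.8 CPM in the untreated libraries and 460.0, 434 and 412 CPM with IL-13 (log2 fold change 2.50, SE 0.10, edgeR adjusted p = 1.4e-12). The carbonic anhydrases Car4 and Car2, unlike Car12 above, rose from 1.65 ± 0.489 to 20.3 ± 3.67 CPM and 35.1 ± 2.03 to 99 ± 4.59 CPM. The chloride channel Ano1 rose from 102 ± 3.87 to 225 ± 7.01 CPM. The water channels Aqp1 and Aqp4 fell, unlike Aqp7 above: Aqp1 stood at 127, 125 and 139 CPM untreated against 29.8, 28.3 and 41.2 CPM with IL-13 (log2 fold change -1.97, SE 0.13, edgeR adjusted p = 9.1e-10). Aqp4 fell from 84.5 ± 3.53 to 24.7 ± 4.04 CPM. The chloride uptake carrier Slc12a2 fell from 537 ± 44.4 to 315 ± 18 CPM. The guanylin gene Guca2a fell from 160.3 ± 32.2 to 88.5 ± 8.81 CPM. The sodium pump subunit Atp1b1, among the genes with the most counts, rose by 0.44 on the log2 scale. The phosphate importer Slc20a1 rose and stood at 149, 152 and 133 CPM untreated against 1371, 1216 and 1308 CPM with IL-13 (log2 fold change 3.17, SE 0.10, edgeR adjusted p = 2e-14). The calcium channel Trpv6 had 0, 0 and 0 counts untreated and 21, 16 and 18 with IL-13, at least 28.3-fold higher at the floor of 3 counts over the group, and the calcium-binding S100g rose from 439.8 ± 21.3 to 690.0 ± 51.4 CPM. The vitamin D receptor, Vdr, fell from 381 ± 10.9 to 253 ± 10.9 CPM. In the calcium and phosphate list 5 of 12 genes rose and 2 fell (4 and 3 by library totals).

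**Figure D5:**
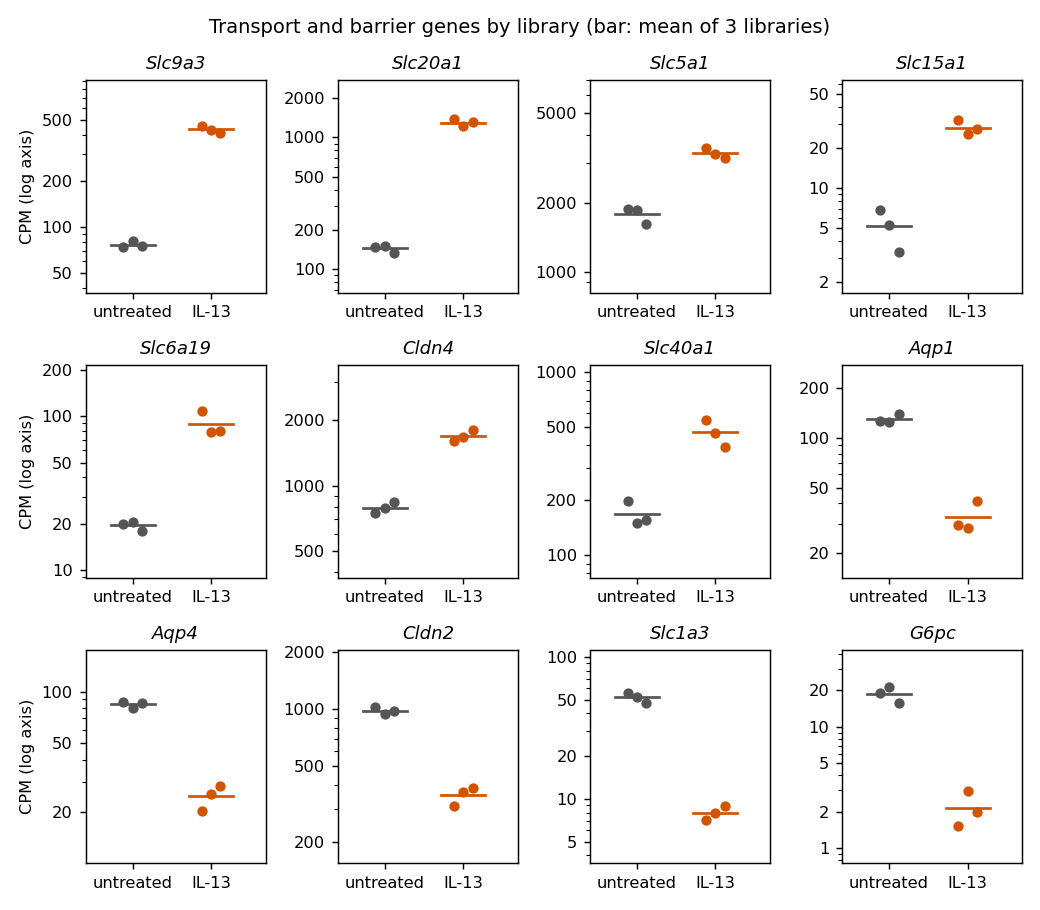
Level in CPM (vertical log axis) of 12 transport and barrier genes in each of the 3 untreated and 3 IL-13 libraries, 1 point per library with a bar at the group mean. Slc9a3, Slc20a1, Slc5a1, Slc15a1, Slc6a19, Cldn4 and Slc40a1 lie higher in all 3 treated libraries, and Aqp1, Aqp4, Cldn2, Slc1a3 and G6pc lower. The 12 genes were picked with their values in view.

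Of 34 junction and adhesion genes 19 rose and 4 fell (11 and 7 with library totals alone). Claudin 2, Cldn2, which forms a cation and water pore, stood at 1030.3, 947 and 976 CPM in the untreated libraries and 309.7, 366 and 387 CPM with IL-13 (log2 fold change -1.48, SE 0.12, edgeR adjusted p = 2.7e-08). The barrier claudin Cldn4 stood at 751, 787 and 839 CPM in the untreated libraries and 1605, 1684 and 1803 CPM with IL-13 (log2 fold change 1.10, SE 0.10, edgeR adjusted p = 1e-07). Cldn23 rose from 54.5 ± 1.31 to 113 ± 10.5 CPM. The cadherins Cdh17 and Cdh1 rose from 991 ± 75 to 1933 ± 56.7 CPM and 1265 ± 50.1 to 1758 ± 117 CPM; Ocln was not called (log2 fold change 0.11). Brush border genes rose in 9 of 21 cases and fell in 3 (5 and 4 with library totals alone), with the microvillar protocadherin Cdhr2 up from 322 ± 18.9 to 699.8 ± 27.1 CPM. The actin bundler Espn rose from 46 ± 4.75 to 107 ± 10.9 CPM. Villin, Vil1, was not called (log2 fold change 0.03). Among 21 keratin and cornified-envelope genes 8 rose and 3 fell (6 and 4 by library totals): Evpl, envoplakin, rose from 26.2 ± 1.44 to 52.7 ± 2.95 CPM. Krt18 rose from 743 ± 44.2 to 1017 ± 38.8 CPM. Krt4 fell from 19.6 ± 3.56 to 8.12 ± 1.26 CPM. Of 37 proteases and inhibitors 12 rose and 6 fell (9 and 8 by library totals). The inhibitors Spint2 and Serpinb1a rose from 2037 ± 97.8 to 3442 ± 81.3 CPM and 412 ± 22.6 to 962 ± 38 CPM. Matrilysin, Mmp7, fell from 140.1 ± 24.9 to 35 ± 9.96 CPM, as did the Paneth cell marker Lyz1, from 843 ± 87.2 to 235 ± 51.9 CPM.

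Of 32 mucosal defence genes 16 were lower and 9 higher. The nitric oxide synthase Nos2 fell from 4.21 ± 0.84 to 0.986 ± 0.584 CPM (log2 fold change -2.11, SE 0.35, edgeR adjusted p = 9.2e-05). The lectin Reg3g fell from 12.9 ± 1.42 to 2.48 ± 0.882 CPM. The oxidase activator Noxa1 fell from 26 ± 0.145 to 11.2 ± 2.69 CPM. The trefoil peptide Tff3 fell from 477 ± 102 to 205 ± 21.3 CPM. The antibody transporter Pigr fell from 2332 ± 18.2 to 1729 ± 61.4 CPM. Beside the Duox genes, the mucin gene Muc3 rose from 84.5 ± 8.42 to 162 ± 33.3 CPM. Eicosanoid genes rose in 13 of 27 cases and fell in 4 (8 and 6 with library totals alone). Pla2g4c, a phospholipase A2, stood at 2.4, 2.15 and 1.94 CPM in the untreated libraries and 1883, 1256 and 1444 CPM with IL-13, and the prostaglandin E2 receptor Ptger4 rose from 39.8 ± 3.6 to 121 ± 5.52 CPM (log2 fold change 1.61, SE 0.09, edgeR adjusted p = 9.4e-11). Alox5, Alox5ap and Hpgds, which tuft cells are known to express, rose from 0.551 ± 0.19 to 5.34 ± 0.632 CPM, 0.527 ± 0.339 to 2.48 ± 0.235 CPM and 1.51 ± 0.402 to 4.72 ± 0.685 CPM; the tuft cell marker sum was higher beside them, as given above, and its part was not tested. Glycosyltransferases moved both ways, with 16 of 41 higher and 11 lower (12 and 14 with library totals alone). Among sialyltransferases St3gal4 stood at 633, 712 and 642 CPM in the untreated libraries and 1986, 1858 and 1812 CPM with IL-13 (log2 fold change 1.51, SE 0.08, edgeR adjusted p = 7.7e-11). St3gal6 rose from 71.5 ± 0.733 to 171 ± 15.5 CPM. St3gal1 fell from 43.5 ± 3.43 to 14.7 ± 2.44 CPM. The fucosyltransferase Fut1 rose from 9.76 ± 0.397 to 24.3 ± 2.9 CPM. Fut4 and Fut8 fell from 34.7 ± 2.4 to 17.2 ± 2.59 CPM and 168 ± 7.44 to 119 ± 4.04 CPM.

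Signalling lists were mixed. Of 47 EGF, Wnt, Notch and BMP genes 14 rose and 15 fell (10 and 18 by library totals). Bmp2 stood at 57.8, 50.4 and 50.4 CPM in the untreated libraries and 220.0, 186 and 198 CPM with IL-13 (log2 fold change 1.93, SE 0.09, edgeR adjusted p = 1.2e-11). The BMP target Id1 fell from 48.2 ± 4.77 to 29.6 ± 4.17 CPM. The Wnt targets Axin2 and Lgr5 fell while Notum, a secreted Wnt inhibitor, rose from 3.37 ± 0.639 to 11.7 ± 1.63 CPM. The Notch targets Hes1 and Nrarp had log2 fold changes of -0.56 and -0.85. Regenerative and YAP-associated genes rose in 13 of 33 cases and fell in 5 (11 and 7 by library totals): tissue factor, F3, rose from 378 ± 5.55 to 840.5 ± 20.3 CPM. Clusterin, Clu, fell from 108 ± 5.96 to 39.3 ± 5.38 CPM (log2 fold change -1.46, SE 0.13, edgeR adjusted p = 4.9e-08). In the clock list 3 of 18 genes rose and 4 fell (16.7% and 22.2%, against 21.8% and 21.7% of all tested genes). The clock genes given here are from those that rose. Nfil3, a transcriptional repressor, rose from 14.6 ± 1.47 to 48.7 ± 2.45 CPM. Nr1d1, a nuclear receptor of the clock, rose from 85.9 ± 3.76 to 178 ± 18.2 CPM. Epithelial transcription factors rose in 12 of 52 cases and fell in 14 (23.1% and 26.9%, against 21.8% and 21.7% of all tested genes). With library totals alone the counts were 10 and 19, and with DESeq2 14 and 14. Spib rose from 4.68 ± 0.677 to 20.7 ± 1.89 CPM (log2 fold change 2.14, SE 0.22, edgeR adjusted p = 4.8e-07). The metabolic regulator Creb3l3 rose from 25.4 ± 1.96 to 86.6 ± 10.1 CPM. Nr5a2, a receptor of intestinal stem and crypt cells, fell from 19.9 ± 0.881 to 5.77 ± 1.38 CPM (log2 fold change -1.78, SE 0.19, edgeR adjusted p = 5.3e-07). Cdx2 fell from 519.7 ± 5.25 to 334 ± 23.2 CPM. The endocrine factor Neurog3 fell from 9.17 ± 1.55 to 3.33 ± 0.891 CPM. Hnf4g, Gata4 and Gata6 were not called (log2 fold changes -0.24, 0.10 and -0.01).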

How the data were processed

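RNA of ileal enteroids was sequenced from directional poly(A) libraries, per the labels' protocols. The authors deposited 1 table of raw read counts per gene, whole numbers and not normalised, on the mouse build mm10, per the submitters' processing notes; no source used here names the aligner, the counter or its strand setting. The authors' own statistics columns were not used. Library totals and the depth they give stand in the report, and counting intervals and floors cover counting error only. Rows of the same gene were summed, which gave 18068 genes, of which 4318 were removed by filterByExpr.

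Counts of all 12 libraries were fitted with edgeR 4.0.16 (TMM, robust quasi-likelihood test), Benjamini-Hochberg adjusted over the 13750 genes tested, and the standard error of a log2 fold change was its size over the square root of F. Counts of 13543 genes were also simulated with the trended spread, and a drawn set with a mean of at least 50 counts was changed. Of that set 71.6%, 95.5% and 100% were recovered at 1.5-, 2- and 4-fold, and 6 unchanged genes were called. The changed set was a far smaller share of the genes than the 43.5% called in the data. These rates do not cover so wide a change, genes with fewer counts or genes with a spread off the trend. Alternatives are in the closing section. Named genes were the 20 of largest change per direction (mean of at least 50 counts, groups apart, predicted genes left out, gasdermin C only listed), list members, ends of neighbour runs, cell markers and the genes with the most counts. Members and lists were chosen with earlier results of these data known, and which list members to describe was decided with their values seen. RefSeq promoters were matched by symbol. Some genes that the rule names are not reported here.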

Additional observations from a re-analysis of the deposited data

How the results depend on the processing

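The alternatives were RLE scaling, scaling by library totals alone, DESeq2 1.42.0, no filter, a mean of at least 50 counts, the 6 compared libraries alone, the replicate block, thinning to the lowest total, and leaving out each of the 6 libraries. The number of genes called ran from 5557 (mean of at least 50 counts) to 7160 (6 libraries alone) against 5977, and from 4923 to 5199 without 1 library. Called genes of at least 2-fold ran from 952 (mean of at least 50 counts, which tests fewer genes) to 1530 (library totals alone) against 1389, and from 1293 to 1411 without 1 library. Library totals alone gave 1822 higher and 4651 lower calls, against 2997 and 2980. Of all called genes 62.2%, and of those of at least 2-fold 86.0%, kept their call and direction under every alternative that tested them. With the replicate block 5866 genes were called. Same-numbered libraries deviated with correlations of -0.010, -0.015 and -0.039, and libraries of different numbers with correlations of -0.039 to 0.053. With 3 libraries a group, such small values cannot tell whether a number marks a shared culture, animal or day. The number of genes called with every library thinned to the lowest total was 5882.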
